A study of Arabidopsis thaliana with 12 samples.

Results

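Among 23071 *Arabidopsis thaliana* genes counted in 12 seedling libraries, 41 stood apart in a single line, MUTEPPP#3. A gene was kept when its level in each of the 3 MUTEPPP#3 libraries lay above its level in all 9 other libraries, and when the MUTEPPP#3 mean was at least 1 CPM and at least 2.5 times the mean of each other line. CPM are counts scaled to a TMM-normalised library total of 1e+06, and they are not corrected for gene length. The rule was met by 47 genes, of which 6 well-known cold, clock and copper genes (*COR27*, *COR28*, *CBF3*, *FKF1*, *LUX* and *CSD2*) were set aside by name, which leaves 39 protein-coding genes and 2 long noncoding RNAs. The genes were chosen by their measured CPM in all 12 libraries, so their height in MUTEPPP#3 is a description and carries no test. For scale, the same rule found 16 genes high only in MUTE, 8 high only in MUTEv5#2 and 3 high only in MUTEv5#5.

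All 4 lines carried a *MUTE* transgene under the *MUTE* promoter in the loss-of-function background mute-3, and the MUTEv5 and MUTEPPP lines are described as homozygous. MUTE is a basic helix-loop-helix transcription factor that commits stomatal precursors to become guard mother cells. The MUTE control was line 1 with the wild-type protein, MUTEv5#2 and MUTEv5#5 were lines 2 and 5 with the R10W protein, and MUTEPPP#3 was line 3 with H3P, E7P and R11P (residues counted as the submitters count them). Each library held 50 whole seedlings taken 2 days after germination from plates with 1% sucrose at 21 °C, with 16 h of light at 70 µmol per square metre and second and 8 h of dark, and each line had 3 biological replicates. MUTE and the MUTEPPP allele were each represented by 1 line, so an effect of the allele cannot be told apart from one of the line or its insertion site. Whole seedlings were pooled, so more RNA per cell and more cells of a type cannot be told apart.

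The libraries held 117868477 to 152600239 counts each, and 1 count was worth at most 0.00915 CPM. *MUTE* itself, counted over transgene and mutant locus together, averaged 5.89 ± 0.899 CPM in MUTEPPP#3 (SD over 3 replicates, as for all means here), against 5.31 ± 0.683 in the MUTE control and 10.7 ± 2.34 and 18.6 ± 5.29 in MUTEv5#2 and MUTEv5#5, respectively. All 5 photosynthetic, 5 root, 5 guard cell and 3 vascular markers were measured and 2 of 5 seed reserve markers were measured, with a summed level of at most 1.86 CPM in any library. The guard cell markers summed to 990 to 1130 CPM in MUTEPPP#3, 1170 to 1350 in MUTE, 502 to 571 in MUTEv5#2 and 343 to 508 in MUTEv5#5. The photosynthetic markers summed to 28000 to 34000 CPM in MUTEPPP#3, 39200 to 41600 in MUTE, 29900 to 34400 in MUTEv5#2 and 34900 to 37700 in MUTEv5#5. Root markers lay at 80.6 to 95.4 CPM in MUTEPPP#3 and at 90.9 to 116 over the other lines, and vascular markers at 99.5 to 108 and at 83.5 to 129. By edgeR's test of MUTEPPP#3 against MUTE (adjusted p under 0.05), 0 photosynthetic markers were higher and 2 lower, with 2 and 2 for root, 1 and 0 for guard cell, 0 and 1 for vascular and 0 and 0 for seed markers (0 and 1 for seed at an unadjusted p under 0.05). The part of these markers in the results that follow was not tested.

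The libraries also differed in the state of their circadian clock genes, before any member is considered. The morning gene *CCA1* and the evening gene *TOC1* encode repressors that inhibit each other in the core of the plant clock. *CCA1* stood at 298, 69.8 and 97.8 CPM in MUTE replicates 1, 2 and 3, at 70.0, 72.8 and 62.4 in MUTEv5#2, at 185, 59.97 and 120 in MUTEv5#5, and at 26.6, 8.32 and 5.01 in MUTEPPP#3. *TOC1* stood at 20.7, 37.6 and 39.8 CPM in MUTE, at 26.6, 28.0 and 51.9 in MUTEv5#2, at 22.0, 37.5 and 27.2 in MUTEv5#5, and at 33.6, 86.1 and 156 in MUTEPPP#3. MUTEPPP#3 replicates 2 and 3 thus held the lowest *CCA1* and highest *TOC1* levels of all libraries. MUTEPPP#3 replicate 1 lay inside the range of the other lines for *TOC1* and below that range for *CCA1*. The hour of harvest is not given in the sources used here, and the part of clock state in the results that follow was not tested.

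In plants, the clock times a large share of transcription to parts of the day. Morning-phased MYB proteins such as CCA1 and LHY bind a short DNA motif called the evening element and hold down genes that peak near dusk, and related MYB proteins of the RVE family activate genes through the same motif. Evening-phased genes include clock parts, B-box factors that read day length, and genes of cold and water stress, whose response to cold is itself gated by the time of day.

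The evening element, searched as AAAATATCT on both strands, was found in the window from 250 bases before to 50 bases after the annotated start of 15 of the 41 genes (36.6%), against 648 of 22918 genes with such a window (2.83%). From 1000 bases before to 50 after the start it was found in 18 of 41 (43.9%) against 1704 of 22918 (7.44%). Other motifs were spread more evenly. In the shorter window the CCA1 binding site AAAAATCT was found in 3 members (7.32%, against 7.69% of all genes), the G-box CACGTG in 6 (14.6% against 8.24%), and the cold-response core CCGAC in 7 (17.1% against 15.8%). ACGTG, the core of abscisic acid response elements that also lies inside the G-box, was found in 17 (41.5% against 27.3%). These matches are letters in a window and no evidence of binding, and the motifs were chosen with the members known.

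The sequences below are shown because they hold the evening element, which 15 of the 41 genes have in the shorter window: 3 promoters of members described first, and a promoter stretch of *COL9*, whose evening elements lie outside the shorter window. They are read 5′ to 3′ on the strand of the gene from RefSeq, build TAIR10.1, and capitals mark the evening element or its reverse complement. *GRP7* (chr2:9266558-9266807, minus strand) and *BBX8* (chr5:19563833-19564082, minus strand) have 3 copies each in the 250 bases before their start, AT4G30650 (chr4:14953954-14954203, plus strand) has 1, and *COL9* (chr3:2441015-2441185, plus strand) has 3 between 550 and 380 bases before its start.
GRP7: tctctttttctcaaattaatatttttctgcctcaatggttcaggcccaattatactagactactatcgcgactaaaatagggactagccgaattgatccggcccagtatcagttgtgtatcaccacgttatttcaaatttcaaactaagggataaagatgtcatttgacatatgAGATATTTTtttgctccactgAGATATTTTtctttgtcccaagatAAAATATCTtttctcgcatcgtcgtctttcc
BBX8: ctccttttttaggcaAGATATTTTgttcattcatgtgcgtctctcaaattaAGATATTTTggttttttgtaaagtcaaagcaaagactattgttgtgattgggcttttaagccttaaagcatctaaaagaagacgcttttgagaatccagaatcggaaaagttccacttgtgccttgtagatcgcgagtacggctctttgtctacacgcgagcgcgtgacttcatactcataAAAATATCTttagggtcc
AT4G30650: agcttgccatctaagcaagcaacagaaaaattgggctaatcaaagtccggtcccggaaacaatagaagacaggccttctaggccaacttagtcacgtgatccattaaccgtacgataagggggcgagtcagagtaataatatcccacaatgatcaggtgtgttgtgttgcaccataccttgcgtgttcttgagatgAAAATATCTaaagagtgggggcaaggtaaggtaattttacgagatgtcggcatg
COL9: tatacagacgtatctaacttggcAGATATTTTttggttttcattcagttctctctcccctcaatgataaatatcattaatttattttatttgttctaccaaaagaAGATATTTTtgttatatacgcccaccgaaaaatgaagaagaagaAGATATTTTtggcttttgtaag

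Of the 6 transcription factors among the members, 4 hold the element in the shorter window. Beside *BBX8* these are *ABF1*, *HSFA6B* and *BBX13*. Their single copies begin at bases 3, 34 and 9 of the gene, with the annotated start itself counted. Their sites are read on the strand that holds AAAATATCT, which is that of the gene for *ABF1* (chr1:18400005-18400013, plus strand) and *HSFA6B* (chr3:8078822-8078830, plus strand) and the opposite one for *BBX13* (chr1:9778027-9778035, plus strand, with the gene on the minus strand); the coordinates are those of the capitals.
ABF1: aaatgaaagcAAAATATCTaaacaataaa
HSFA6B: aactccacacAAAATATCTctccctctat
BBX13: aatctaagagAAAATATCTaatctgcttt

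The ratio of the MUTEPPP#3 mean to the highest mean of another line ran from 2.508 to 13.79 over the 41 genes, with a median of 3.465. It was at least 5 for 10 genes, between 3 and 5 for 16 and under 3 for 15. MUTEPPP#3 means ran from 1.22 to 1361 CPM with a median of 12.11, and lay under 10 CPM for 15 genes. In the other 9 libraries 24 members stayed at or above 1 CPM in every library and 6 stayed below 1 CPM in every library, and the lowest count of any member there was 6. All 41 passed the filter on low counts.

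**Figure D1:**
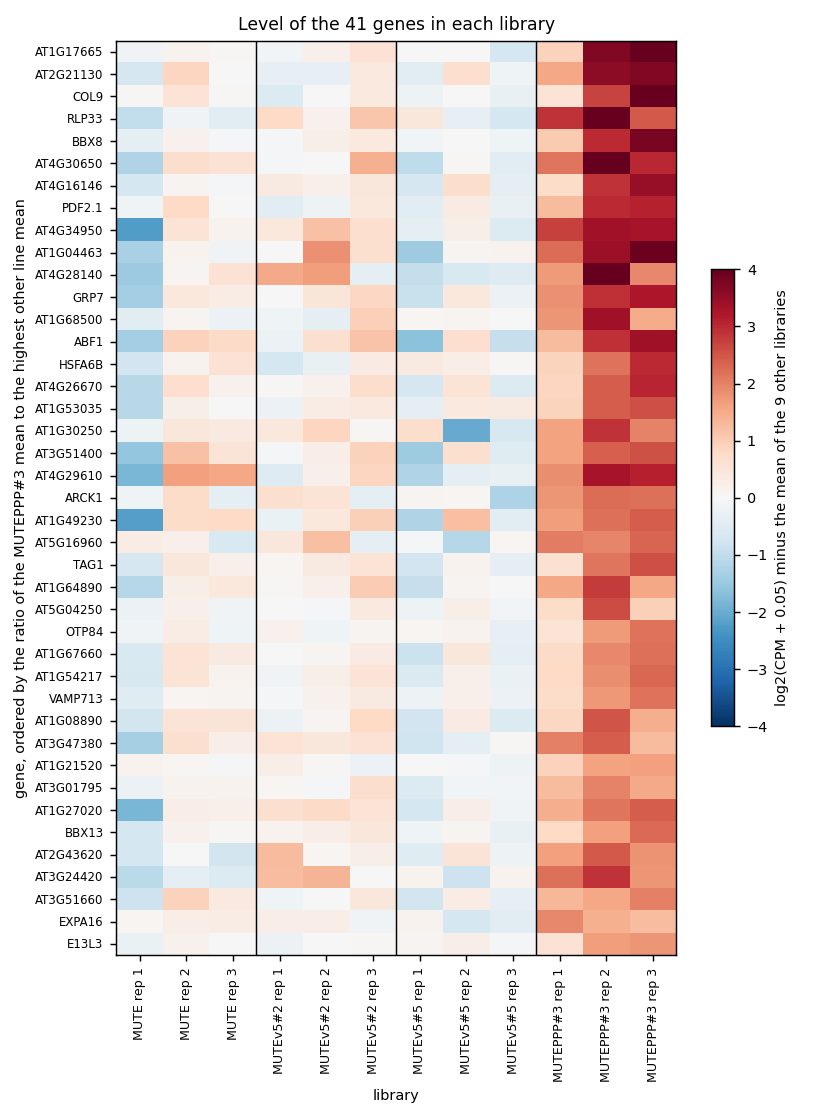
Level of the 41 genes (rows, ordered by ratio) in the 12 libraries (columns, in groups of 3 replicates), as log2(CPM + 0.05) minus the gene's mean over the 9 libraries of the other lines. MUTEPPP#3 replicates 2 and 3 are the darkest red columns, MUTEPPP#3 replicate 1 is paler, and MUTE replicate 1 is blue for most genes.

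The transcription factors were led by B-box proteins. *COL9*, a CONSTANS-like B-box protein (also BBX7) known to delay flowering, stood at 4.81, 6.86 and 4.84 CPM in the 3 MUTE replicates, at 3.20, 4.62 and 6.14 in MUTEv5#2, at 4.07, 4.56 and 3.82 in MUTEv5#5, and at 6.88, 30.7 and 90.9 in MUTEPPP#3. Its MUTEPPP#3 mean was 7.78 times the highest other mean, yet replicate 1 only just cleared the highest other library, while replicate 3 stood at 13.2 times that library. *BBX8*, of the same family, showed the same order of the MUTEPPP#3 libraries, at 13.5, 52.0 and 91.5 CPM. In the other lines *BBX8* stood at 5.00, 7.43 and 6.24 (MUTE), 6.26, 7.82 and 8.56 (MUTEv5#2) and 6.10, 6.63 and 5.90 (MUTEv5#5), so that each MUTEPPP#3 library lay well clear of a narrow range. *BBX13*, another member of the family, had means ± SD (n = 3 in each line) of 8.997 ± 2.62, 11.9 ± 1.22, 8.997 ± 1.33 and 31.5 ± 15.1 CPM in MUTE, MUTEv5#2, MUTEv5#5 and MUTEPPP#3.

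The other transcription factors belong to stress pathways. *ABF1*, a bZIP factor that binds abscisic acid response elements, stood at 3.12, 15.5 and 13.7 CPM in MUTE, at 6.94, 12.6 and 18.1 in MUTEv5#2, at 2.56, 12.998 and 4.30 in MUTEv5#5, and at 19.4, 61.4 and 86.0 in MUTEPPP#3. It varied widely within every line, with its lowest library in MUTEv5#5 and its other-line maximum in MUTEv5#2 replicate 3. *HSFA6B*, a class A heat shock factor linked to heat and abscisic acid responses, was low throughout, with 2.25 ± 1.47 CPM in MUTEPPP#3 against 0.464 ± 0.216, 0.383 ± 0.159 and 0.520 ± 0.0645 in MUTE, MUTEv5#2 and MUTEv5#5. AT4G28140, of the AP2/ERF family (named Integrase-type DNA-binding in the annotation), stood at 0.0628, 0.280 and 0.412 CPM in MUTE, at 0.823, 0.934 and 0.189 in MUTEv5#2, at 0.110, 0.153 and 0.167 in MUTEv5#5, and at 0.947, 7.62 and 1.11 in MUTEPPP#3. Its ratio of 4.97 came mainly from MUTEPPP#3 replicate 2, since replicates 1 and 3 lay near the highest MUTEv5#2 library.

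*GRP7* encodes a glycine-rich RNA-binding protein that is itself under clock control, peaks in the evening, and limits its own level through splicing of its transcript. It stood at 76.7, 268 and 243 CPM in MUTE, at 202, 279 and 356 in MUTEv5#2, at 107, 269 and 168 in MUTEv5#5, and at 705, 1512 and 1864 in MUTEPPP#3. Even the lowest MUTEPPP#3 library held 1.98 times the level of the highest other one, MUTEv5#2 replicate 3, while MUTE replicate 1 was the lowest library of all. *OTP84*, a pentatricopeptide repeat protein needed for editing of chloroplast transcripts, was the other RNA-related member, at 5.16 ± 0.933, 5.30 ± 0.644, 5.01 ± 0.852 and 15.8 ± 7.94 CPM in MUTE, MUTEv5#2, MUTEv5#5 and MUTEPPP#3.

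**Figure D2:**
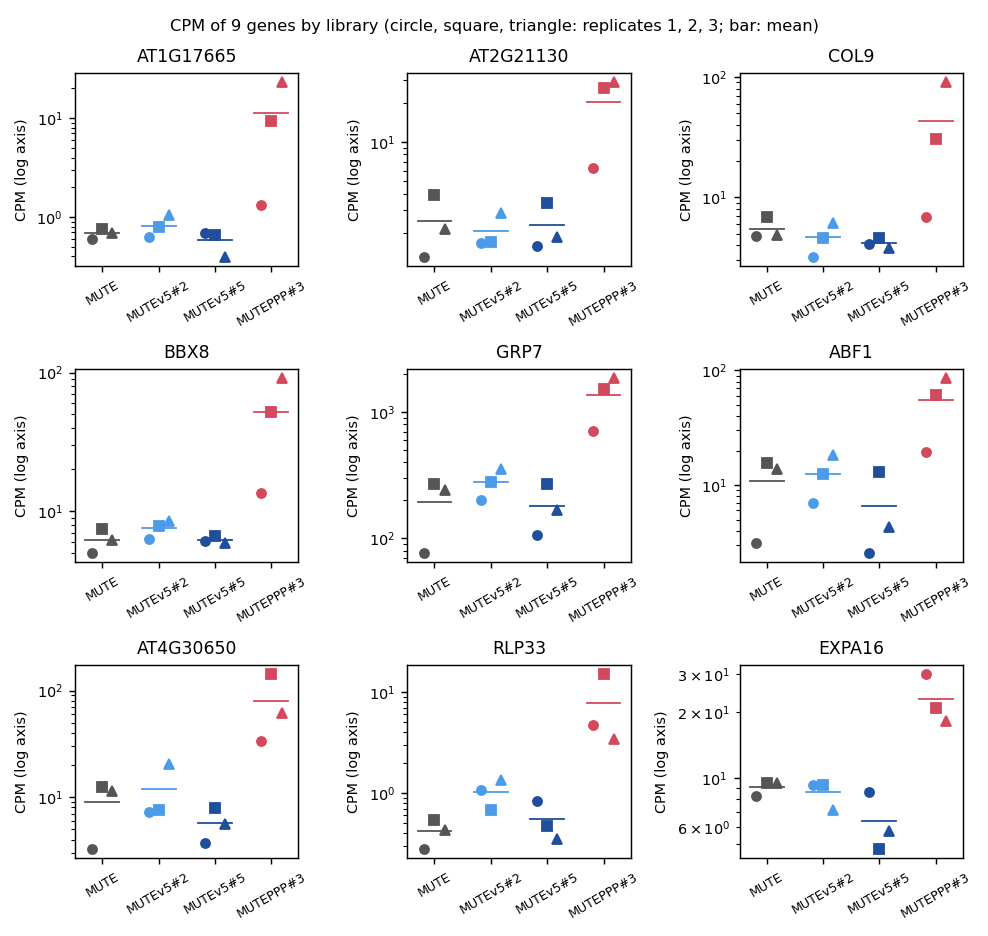
CPM (log axis) of 9 of the genes in each library, by line, with circles, squares and triangles for replicates 1, 2 and 3 and a bar for the mean. *COL9*, *BBX8*, *GRP7* and *ABF1* have MUTEPPP#3 replicate 3 on top, AT4G30650 and *RLP33* have replicate 2 on top, and *EXPA16* has replicate 1 on top.

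AT4G30650 belongs to the low temperature and salt responsive family of small membrane proteins. It stood at 3.27, 12.5 and 11.5 CPM in MUTE, at 7.22, 7.65 and 20.6 in MUTEv5#2, at 3.73, 7.85 and 5.61 in MUTEv5#5, and at 33.9, 143 and 62.0 in MUTEPPP#3. Here MUTEPPP#3 replicate 2, not replicate 3, was the highest library.

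Several signalling genes were members. *RLP33*, a receptor-like protein, a class of cell surface receptors without a kinase domain, stood at 0.279, 0.538 and 0.430 CPM in MUTE, at 1.07, 0.679 and 1.34 in MUTEv5#2, at 0.827, 0.466 and 0.350 in MUTEv5#5, and at 4.77, 15.1 and 3.45 in MUTEPPP#3. The MUTEPPP#3 libraries lay at 3.55, 11.3 and 2.57 times the highest other one, with replicate 2 on top. *ARCK1*, a receptor-like cytosolic kinase that restrains abscisic acid signalling, stood at 2.42, 3.35 and 3.30 CPM in MUTEPPP#3 and at no more than 1.16 CPM elsewhere, so that its MUTEPPP#3 replicates lay close together. AT4G16146, related to a cAMP-regulated phosphoprotein of animals, stood at 0.998, 1.79 and 1.62 CPM in MUTE, at 2.14, 1.93 and 2.31 in MUTEv5#2, at 1.04, 2.76 and 1.28 in MUTEv5#5, and at 2.82, 12.9 and 19.4 in MUTEPPP#3, where replicate 1 barely exceeded MUTEv5#5 replicate 2.

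Among genes of protein folding and turnover, AT2G21130, a cyclophilin (a class of prolyl isomerases that assist folding), had the second largest ratio of all members. It stood at 1.31, 3.93 and 2.16 CPM in MUTE, at 1.69, 1.70 and 2.85 in MUTEv5#2, at 1.58, 3.42 and 1.87 in MUTEv5#5, and at 6.29, 26.1 and 28.7 in MUTEPPP#3. AT5G04250, of the cysteine proteinase superfamily, stood at 6.11, 22.2 and 7.15 CPM in MUTEPPP#3 and at no more than 4.65 elsewhere, so that replicate 2 set its mean. AT1G49230 (ATL78), of the RING family that includes ubiquitin ligases, stood at 5.00, 7.12 and 8.30 CPM in MUTEPPP#3 against 0.293 to 3.53 elsewhere, and its whole length overlaps AT1G49225 on the opposite strand.

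Transport and membrane genes included 3 members of the major facilitator superfamily, a family of membrane carriers. AT4G34950 stood at 3.68, 25.4 and 19.02 CPM in MUTE, at 23.2, 38.7 and 27.9 in MUTEv5#2, at 13.1, 20.3 and 11.8 in MUTEv5#5, and at 114, 177 and 171 in MUTEPPP#3. Its MUTEPPP#3 libraries were close to each other and all at 2.95 times the highest other library or more, a tighter pattern than that of most members. AT1G64890 (20.2 ± 10.97 CPM in MUTEPPP#3, at most 9.56 in any other library) and AT1G08890 (31.3 ± 18.9 against at most 15.7) had MUTEPPP#3 replicate 2 on top. AT4G26670, of the Tim17/Tim22/Tim23 family of membrane translocase subunits, stood at 5.36, 18.23 and 13.1 CPM in MUTE, at 11.9, 13.008 and 18.8 in MUTEv5#2, at 7.24, 17.0 and 7.88 in MUTEv5#5, and at 20.9, 62.2 and 95.2 in MUTEPPP#3. *VAMP713*, a SNARE protein of vesicle fusion, had 9.39 ± 2.01, 11.1 ± 1.59, 9.50 ± 1.68 and 31.6 ± 14.4 CPM in MUTE, MUTEv5#2, MUTEv5#5 and MUTEPPP#3.

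AT3G24420, of the alpha/beta-hydrolase superfamily, is placed among the metabolic members by its annotated family, which does not show that it acts in metabolism. It was the only member called by edgeR in a comparison without MUTEPPP#3, a call that depended on the fit, as given with that comparison. It stood at 5.25, 8.62 and 7.601 CPM in MUTE, at 26.4, 29.1 and 11.2 in MUTEv5#2, at 12.3, 6.27 and 12.4 in MUTEv5#5, and at 52.1, 84.4 and 38.0 in MUTEPPP#3. All MUTEv5#2 libraries lay above all MUTE libraries, and all MUTEPPP#3 libraries above both. *TAG1* (*DGAT1*), the acyltransferase of the last step of triacylglycerol synthesis, stood at 14.3, 41.7 and 55.8 CPM in MUTEPPP#3 and at 5.45 to 13.7 elsewhere. The remaining metabolic genes were AT4G29610, of the cytidine deaminase family, with 3.83 ± 1.72 CPM in MUTEPPP#3, AT5G16960, a zinc-binding dehydrogenase with 1.31 ± 0.186, AT3G51660, of the tautomerase family, with 12.1 ± 3.03, and AT1G67660, of a restriction endonuclease-like superfamily, with 22.5 ± 10.08.

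Defence and cell wall genes made up 5 members. *PDF2.1*, a plant defensin, stood at 0.928, 1.87 and 1.04 CPM in MUTE, at 0.742, 0.903 and 1.42 in MUTEv5#2, at 0.776, 1.31 and 0.837 in MUTEv5#5, and at 2.59, 8.71 and 9.26 in MUTEPPP#3. AT2G43620, of the chitinase family, stood at 5.57, 9.68 and 6.13 CPM in MUTEPPP#3, and the highest other library was MUTEv5#2 replicate 1 at 4.25 CPM. AT3G47380, a pectin methylesterase inhibitor family gene, stood at 8.71, 11.8 and 5.24 CPM in MUTEPPP#3 and at no more than 3.34 elsewhere. *EXPA16* encodes an expansin, a protein that loosens cell walls, and stood at 8.25, 9.51 and 9.52 CPM in MUTE, at 9.34, 9.33 and 7.14 in MUTEv5#2, at 8.65, 4.75 and 5.74 in MUTEv5#5, and at 29.97, 20.8 and 18.3 in MUTEPPP#3. It was the only member with MUTEPPP#3 replicate 1 as the highest library. *E13L3* (*PDCB2*), a callose-binding protein of plasmodesmata, had the smallest ratio, with 6.15, 13.3 and 14.1 CPM in MUTEPPP#3 against 3.39 to 4.90 elsewhere.

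The largest ratio belonged to AT1G17665, which the annotation calls a CA-responsive protein and gives no further function. It stood at 0.607, 0.761 and 0.695 CPM in MUTE, at 0.625, 0.787 and 1.04 in MUTEv5#2, at 0.685, 0.665 and 0.396 in MUTEv5#5, and at 1.33, 9.33 and 23.2 in MUTEPPP#3. Its mean was 13.8 times the highest other mean, but replicate 1 was only 1.27 times the highest other library. AT1G27020, likewise without a described function, stood at 4.93, 21.6 and 20.3 CPM in MUTE, at 27.7, 30.5 and 25.7 in MUTEv5#2, at 11.002, 21.2 and 16.2 in MUTEv5#5, and at 48.3, 79.0 and 96.1 in MUTEPPP#3. The other genes of this kind, AT1G68500, AT1G53035, AT1G30250, AT3G51400 and AT1G21520, had MUTEPPP#3 means of 1.35 to 14.5 CPM. AT1G54217, which the annotation places in the ribosomal protein L18ae family, had 5.12 ± 2.38 CPM in MUTEPPP#3.

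Both noncoding members lie within a gene on the opposite strand. AT1G04463 stood at 0.495, 1.43 and 1.15 CPM in MUTE, at 1.26, 4.69 and 2.00 in MUTEv5#2, at 0.446, 1.39 and 1.42 in MUTEv5#5, and at 6.22, 14.2 and 19.9 in MUTEPPP#3, while the gene that contains it, AT1G06450, stood at 2.94 to 4.33 CPM in the other lines and at 5.22, 5.04 and 7.09 in MUTEPPP#3. AT3G01795 stood at 0.941, 1.59 and 1.13 CPM in MUTEPPP#3 and at most 0.623 elsewhere, and its partner AT3G05880 (*RCI2A*, a cold-induced gene) stood at 60.3 to 119 CPM in the other lines and at 119, 276 and 284 in MUTEPPP#3. In all, 10 members overlap a gene on the opposite strand, *ABF1* and *BBX8* among them. A single overlap covered 100% of AT1G04463, AT1G49230 and AT3G01795 and at most 24.5% of the other members, with 2.23% for *BBX8*. The strand setting of the counting is not given in the sources used here, so reads of a member and its partner cannot be told apart where the genes overlap.

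The MUTEPPP#3 libraries were not alike over these genes. MUTEPPP#3 replicate 1 was the lowest of the 3 for 34 of 41 genes (82.9%, against 38.4% of all genes tested) and the highest for 1 (2.44% against 38%). Replicate 2 was the highest for 15 (36.6% against 24%) and replicate 3 for 25 (61% against 38%). Against the highest of the 9 other libraries, the median member lay at 1.37 times in replicate 1, 3.22 times in replicate 2 and 3.01 times in replicate 3. In replicate 1 the level was under 1.5 times that library for 25 genes, against 0 in replicate 2 and 5 in replicate 3. Without MUTEPPP#3 replicate 1 the rule found 145 genes, which include 40 of the 41, and without replicate 3 it found 61, which include 32.

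**Figure D3:**
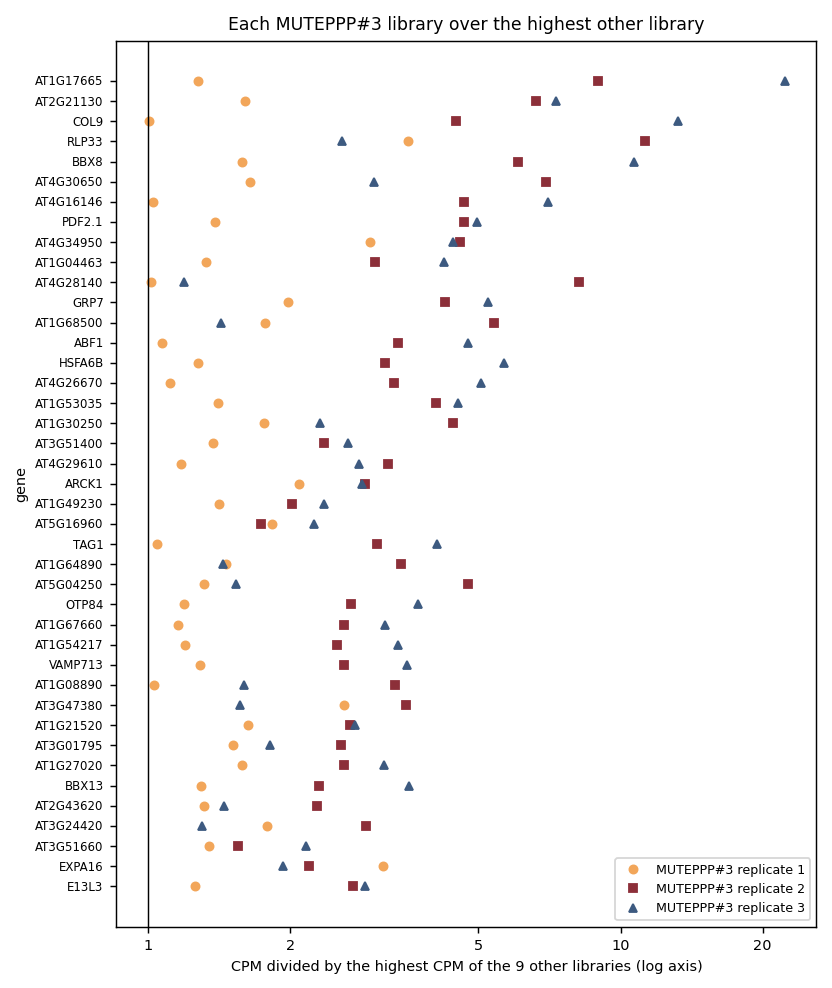
CPM of each MUTEPPP#3 library divided by the highest CPM of the 9 other libraries (log axis), for each gene, with 1 marked by a line. Replicate 1 (circles) lies closest to 1 for most genes, with a median of 1.37, and replicates 2 and 3 have medians of 3.22 and 3.01.

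Known genes with the same order of MUTEPPP#3 libraries can be set beside these groups. The evening element was found in the shorter window of 11 of 25 genes highest in replicate 3 (44%) and of 4 of 15 highest in replicate 2 (26.7%); this difference was not tested. The clock genes named to be left out were highest in replicate 3. Among them were *FKF1* (6.51, 54.0 and 94.0 CPM in MUTEPPP#3 replicates 1, 2 and 3), which met the rule, and *ELF4* (5.31, 13.99 and 41.8), which did not. The listed cold response genes were mixed. *RD29A* (516, 1847 and 145 CPM), *COR15A* (7.25, 53.9 and 1.36) and *GOLS3* (22.3, 64.6 and 1.06) were highest in replicate 2 and lowest in replicate 3, while *COR27* (0.756, 23.9 and 76.4) and *COR28* (1.67, 16.3 and 51.1) were highest in replicate 3 and lowest in replicate 1. Of the members, AT1G68500 (6.48, 19.8 and 5.23 CPM), *RLP33*, AT1G64890, AT3G47380 and AT3G24420 were also highest in replicate 2 and lowest in replicate 3. *CSD2*, a copper/zinc superoxide dismutase that meets the rule but was set aside, stood at 438, 459 and 458 CPM, with no such spread.

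Replicates of the other lines, whose order the rule did not use, also moved together over the members. MUTE replicate 1 was the lowest MUTE library for 36 of 41 members (87.8%), against 40.8% of all genes tested, and MUTE replicate 2 was the highest for 33 (80.5% against 28.8%). In MUTEv5#2, replicate 3 was the highest for 29 (70.7% against 38.4%), and in MUTEv5#5, replicate 2 was the highest for 27 (65.9% against 34.3%). The 13 genes of the evening clock list, none of them a member, had the same replicates on top: MUTE replicate 2 for 7, MUTEv5#2 replicate 3 for 11, MUTEv5#5 replicate 2 for 11 and MUTEPPP#3 replicate 3 for 9. That list also holds *ZTL*, *LNK3* and *LNK4*, which are not read as evening-phased genes here. Relative to the MUTE mean, the median member lay at -0.65, 0.44 and 0.21 on the log2 scale in the 3 MUTE libraries, and the median evening gene at -0.55, 0.26 and 0.19. In MUTEPPP#3 the medians were 1.25, 2.61 and 2.43 for members and 0.10, 1.28 and 1.66 for evening genes, while that of 13 morning clock genes was -1.08, -2.13 and -2.30. Genes within a library are not independent replicates, and these orders are descriptions.

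**Figure D4:**
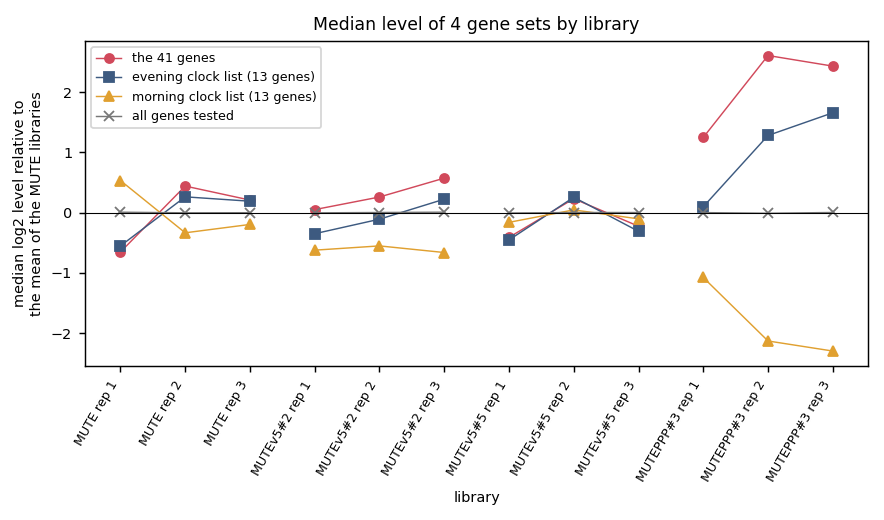
Median log2 level relative to the mean of the MUTE libraries, by library, for the 41 genes, 13 genes of the evening clock list, 13 morning clock genes and all genes tested. The evening list includes *ZTL*, *LNK3* and *LNK4*. In MUTE, MUTEv5#2 and MUTEv5#5 the medians of members and evening genes move in the same direction between replicates, whereas between MUTEPPP#3 replicates 2 and 3 that of the members goes from 2.61 to 2.43 and that of the evening genes from 1.28 to 1.66.

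Comparisons among the other lines set no MUTEPPP#3 level against another, and asked whether the R10W lines also differ from MUTE in these genes. They are not independent of the rule, which read all 9 of these libraries, and the fit takes part of its spread from the MUTEPPP#3 libraries. With edgeR's quasi-likelihood test and Benjamini-Hochberg adjustment over 22636 genes, at a threshold of 0.05, 1 of the 41 genes was higher in MUTEv5#2 than in MUTE and 0 were lower, where 1.48% of all genes tested were called higher and 3.55% lower (5.04% in either direction). That gene was AT3G24420, with a log2 fold change of 1.64 (SE 0.41, 95% interval 0.73 to 2.54, adjusted p = 0.0466, higher in 3 of 3 libraries). Its call was lost on leaving out replicate 1 or 2 of MUTEPPP#3, replicate 1 or 3 of MUTEv5#5, replicate 1 or 2 of MUTEv5#2, or any of the MUTE replicates, where the edgeR log2 fold change ran from 1.39 to 1.79 and the adjusted p from 0.0517 to 0.173. DESeq2 called AT2G43620 as well. Of the 41 fold changes in MUTEv5#2 against MUTE, 31 were above 0, with a median log2 fold change of 0.25, against 0.00 over all genes tested. Relative to the MUTE mean, the median member lay at 0.05, 0.26 and 0.57 on the log2 scale in MUTEv5#2 replicates 1, 2 and 3. In MUTE replicates 1, 2 and 3 it lay at -0.65, 0.44 and 0.21, so the libraries of these lines overlapped. MUTE replicate 1 was the lowest MUTE library for 36 of 41 members. All MUTEv5#2 libraries lay above all MUTE libraries for 5 members (12.2%: AT3G24420, AT2G43620, *RLP33*, AT4G16146 and AT1G27020), where 14.2% of all genes did, and all lay below for 0 members, where 16.1% of all genes did. At an unadjusted p under 0.05 there were 4 members, where 22.8% of all genes were under it: AT3G24420, AT2G43620, *RLP33* and AT1G04463, the last 3 with log2 fold changes of 1.08, 1.31 and 1.37 and adjusted p of 0.13, 0.193 and 0.218.

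In MUTEv5#5 against MUTE, 0 members were called, where 1.04% of all genes tested were (0.314% higher and 0.725% lower), while DESeq2 called 0. At an unadjusted p under 0.05 there was 1 member (AT4G29610, log2 fold change -1.80, adjusted p = 0.294 by edgeR), where 16.2% of all genes were under it. Of the 41 fold changes 28 were below 0, where 51% of all genes were. The median log2 fold change was -0.19, against -0.006 over all genes tested. Relative to the MUTE mean, the median member lay at -0.41, 0.23 and -0.23 on the log2 scale in MUTEv5#5 replicates 1, 2 and 3. All MUTEv5#5 libraries lay above all MUTE libraries for 0 members and below them for 1, *COL9* (2.44%), where 10.2% and 10.5% of all genes did. Between the R10W lines, MUTEv5#5 against MUTEv5#2, 0 members were called by edgeR and 0 by DESeq2, where 0.0663% of all genes tested were called by edgeR (0.0177% higher and 0.0486% lower). At an unadjusted p under 0.05 there were 2 members, AT3G24420 and AT4G28140, where 10.8% of all genes were under it. Fold changes of 38 of 41 members were below 0, with a median of -0.49 on the log2 scale, where 49.9% of all genes were below 0. All MUTEv5#5 libraries lay above all MUTEv5#2 libraries for 0 members and below them for 6 (14.6%), where 10% and 8.16% of all genes did. The 95% intervals, which are not adjusted for the number of genes, reached a median of 1.06 log2 units to either side of the estimate in each of these contrasts. A 2-fold difference was therefore not detectable for most members, and larger ones could go uncalled, as for AT4G29610 above.

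**Figure D5:**
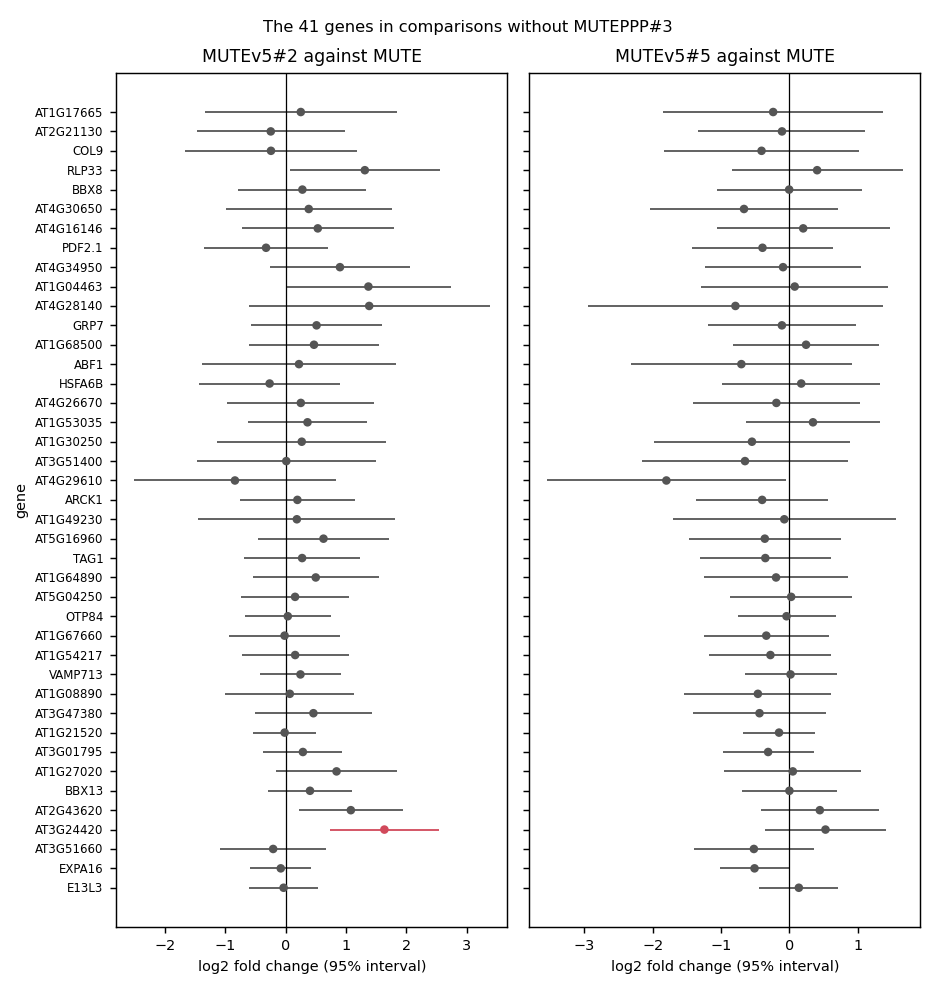
Log2 fold change of each gene with its 95% interval in MUTEv5#2 against MUTE (left) and MUTEv5#5 against MUTE (right), from a single fit of all libraries. AT3G24420 in MUTEv5#2, drawn in red, is the only one of these genes called by edgeR in either contrast.

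For completeness, the contrasts that the rule used gave log2 fold changes of 1.34 to 4.22 against MUTE, 1.39 to 3.78 against MUTEv5#2 and 1.33 to 4.49 against MUTEv5#5. In the fit over all genes 38, 18 and 40 of the 41 lay past an adjusted p of 0.05 with higher levels in MUTEPPP#3, where 10.7%, 1.06% and 6.32% of all genes did, and 13.9%, 1.4% and 9.38% of all genes lay past it with lower levels. In either direction 24.6%, 2.47% and 15.7% of all genes were called. All 3 MUTEPPP#3 libraries lay above all libraries of the other line for 19.2%, 11.6% and 15.3% of all genes. Selection fixed their direction, and these counts support nothing further.

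Other genes of the pathways to which members belong were taken from lists, in MUTEPPP#3 against MUTE, where, as above, 10.7% of all genes rose and 13.9% fell. The comparison is the one the rule used, and the lists hold genes that it named, so the counts describe the surroundings of the members. Among 13 genes of the evening clock list 5 rose (*TOC1*, *PRR3*, *LUX*, *ELF4* and *FKF1*) and 3 fell (*ZTL*, *LNK3* and *LNK4*), with a median log2 fold change of 1.05. *LNK1* and *LNK2*, of the same family as *LNK3* and *LNK4*, are in the morning list. In MUTEPPP#3 replicates 1, 2 and 3 *LNK3* stood at 23.9, 4.98 and 1.78 CPM and *LNK4* at 32.6, 13.2 and 8.97, the order of *CCA1*. *ZTL* stood at 30.05, 30.52 and 30.4 CPM. The 3 that fell are therefore not read as evening-phased genes. The number that rose was 2 without MUTE replicate 1, MUTE replicate 3 or MUTEPPP#3 replicate 3, 3 without MUTE replicate 2 or MUTEPPP#3 replicate 2, 7 without MUTEPPP#3 replicate 1, and 1 with only the MUTE and MUTEPPP#3 libraries in the fit. Among 13 morning clock genes 8 fell, *CCA1* and *RVE8* among them, 0 rose, and the median was -1.87. *LHY*, the partner of *CCA1*, had a log2 fold change of -3.85 with an adjusted p of 0.0537 by edgeR.

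Among 15 cold response genes 6 rose (*COR15A*, *KIN2*, *RD29A*, *COR27*, *COR28* and *GOLS3*), 0 fell, and the median was 1.54. The number was 3 without MUTEPPP#3 replicate 2, 4 without MUTE replicate 2, and 1 with only the libraries compared in the fit. *CBF1* and *CBF2* are upstream activators of many of these genes. They had log2 fold changes of 0.46 and -1.29 with adjusted p of 0.878 and 0.589 by edgeR. They varied from 0.0840 to 45.9 CPM and from 0.569 to 70.6 CPM over the libraries of the other lines. Replicate 3 was the highest library of each of these lines for both genes. In replicate 3 of MUTE, MUTEv5#2 and MUTEv5#5 *CBF1* stood at 45.9, 23.7 and 12.9 CPM and *CBF2* at 70.6, 20.4 and 29.0. Replicates 1 and 2 of these lines held at most 3.26 CPM of *CBF1* and 5.60 CPM of *CBF2*. What replicate 3 shared was not tested. *CBF3*, which met the rule and was set aside, stood at 7.297, 9.39 and 4.004 CPM in MUTEPPP#3 replicates 1, 2 and 3. It stood at no more than 2.159 CPM elsewhere. Its log2 fold change was 2.785 with an adjusted p of 0.0562 by edgeR. Abscisic acid and desiccation genes, the pathway of *ABF1* and *ARCK1*, gave 0 that rose and 2 that fell of 14 (by DESeq2 1 and 4), with a median of 0.02. Heat shock genes, the pathway of *HSFA6B*, gave 0 and 2 of 9. A list of day-length and clock output genes holds *GRP7*, CONSTANS-like and CDF genes, *CHE*, *CCL*, *CAT3* and *CAB1*. Beside *GRP7* it gave 0 that rose and 3 that fell of 12, and those that fell were *COL2*, *COL5* and *CDF2*. Copper genes, the pathway of *CSD2*, gave 4 that rose and 9 that fell of 14. Of the other lists, light and shade genes gave 0 and 8 of 16, sulfur starvation 0 and 6 of 11, hypoxia 3 and 0 of 10, nitrate response 3 and 1 of 10, phosphate starvation 0 and 3 of 10, salicylic acid defence 0 and 3 of 8, jasmonate 0 and 2 of 13, flavonoid synthesis 1 and 1 of 13, and gibberellin and auxin growth genes 0 and 0 of 12 by edgeR (0 and 1 by DESeq2, 0 and 4 at an unadjusted p under 0.05). Calls in the small lists often turned on 1 library. Over the 12 leave-one-out fits the number that rose ran from 0 to 2 for abscisic acid, 0 to 3 for nitrate and 0 to 2 for gibberellin and auxin. In these lists the number that fell ran from 0 to 2, 0 to 3 and 0 to 1. Those that fell ran from 0 to 4 for flavonoid, 1 to 3 for jasmonate, 1 to 3 for phosphate, 1 to 2 for heat shock and 3 to 6 for day-length and clock output genes.

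The members were spread over the genome, with 14, 5, 10, 7 and 5 on chromosomes 1 to 5, where the table holds 6119, 3508, 4517, 3482 and 5293 genes. The closest pair, AT3G51400 and AT3G51660, lay 85039 bases apart, and no member had another stretch in the genome of at least 90% identity over 150 bases. Near the ratio threshold, *E13L3* (2.51), *EXPA16* (2.54) and AT3G51660 (2.55) were the last genes inside, and AT4G00130 (2.46), *CYP81D8* (2.44) and *RFC3* (2.40) the first outside. Near the level threshold, AT3G01795, AT5G16960 and AT1G21520 (1.22, 1.31 and 1.35 CPM in MUTEPPP#3) lay inside and *IAA32*, *CYP71A12* and AT3G49130 (0.869, 0.720 and 0.579 CPM) outside. *CP29*, a chloroplast RNA-binding protein, had a ratio of 2.97 and was left out by the order of its libraries, since MUTEPPP#3 replicate 1 (368.4 CPM) fell just short of MUTE replicate 2 (368.6 CPM). In all, 59 genes met the level and ratio but had overlapping libraries, and 1053 had no overlap and the level at any ratio.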

How the data were processed

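Messenger RNA of whole seedlings was sequenced in 12 libraries from a stranded mRNA kit, per the labels' protocols. The submitters' processing notes name the TAIR10 build, the aligners Bowtie2 2.3.4.1 and HISAT2 2.1.0, Trimmomatic 0.38 and FastQC for read quality, StringTie 2.1.3b and DESeq2. The authors deposited read counts per gene, per the file headers; no source used here says which tool counted, with which strand setting, or how read pairs entered. The lowest count in the table was 1, and 80 entries stood at 1 in all libraries, so 1 may have been added to each value. Of 23098 entries 23071 matched a gene of the RefSeq annotation of TAIR10.1; the other 27 name no gene, held under 0.001% of any library and were left out.

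CPM used TMM-scaled totals. Tests used edgeR 4.0.16 (quasi-likelihood, R 4.3.3) with filterByExpr (22636 genes tested, 435 left out), all 12 libraries in a single fit of 4 line means, Benjamini-Hochberg adjustment over all genes tested and a threshold of 0.05. DESeq2 1.42.0, scaling by RLE or by library totals alone, other filters, a replicate term, fits of the compared lines alone, other rule thresholds and leaving out each library were the alternatives. The common biological coefficient of variation was 0.215. Tested on simulated counts of MUTEv5#2 against MUTE (22583 genes), the fit recovered 71 of 100 genes changed 2-fold and 100 of 100 changed 4-fold, with 6 false calls. The simulation gave all genes the same spread, close to the common one, and drew libraries independently. Its rates therefore do not carry over to members, most of which vary more between replicates. No library was a copy of another: chi-square per degree of freedom between replicates was 80.4 to 297. The labels call replicates independent and biological; they are pools of seedlings. For MUTE and MUTEv5#5 the replicate numbers were taken to pair the libraries: deviations of same-numbered libraries from their line means correlated at 0.36 to 0.60 over genes in 3 of 3 pairs, with nothing in the labels on what a number shares.

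The members, gene lists and their roles were chosen with earlier results of these data known. Values in every library are given for the 12 members with the largest ratio, the 8 with the highest MUTEPPP#3 mean, list genes and genes called outside the rule; some others were added for their replicate order after their values were seen. The motif search, the functional groups and the replicate orders were also chosen after seeing the data. Promoters start at the annotated gene start of TAIR10.1, whose coordinates matched those of all 27 unnamed entries.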

Additional observations from a re-analysis of the deposited data

How the results depend on the processing

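The number of genes that met the rule was 88 at 2 times and 26 at 3 times in place of 2.5 times, and ran from 32 to 145 on leaving out 1 library, with 32 without MUTEPPP#3 replicate 2 and 145 without MUTEPPP#3 replicate 1. It was 42 with RLE scaling, 55 with library totals as the only scaling, 45 at 0.5 CPM, 37 at 2 CPM and 41 after 1 was subtracted from every count. Members called in MUTEv5#2 against MUTE, 1 in the edgeR fit, were 2 with DESeq2 (AT3G24420 and AT2G43620), 0 with only the libraries of the compared lines, and 0 to 1 on leaving out 1 library. MUTEv5#5 against MUTE and against MUTEv5#2 gave 0 under each of these alternatives. The lists held 73 called genes in MUTEPPP#3 against MUTE (22 higher and 51 lower), 50 to 75 on leaving out 1 library and 50 with only the compared lines. With library totals as the only scaling the split was 30 higher and 44 lower. The cause of these shifts was not tested. Replicate numbers were not taken to pair the samples of the other line pairs, where deviations of same-numbered libraries correlated at -0.18 to 0.52, over 0.1 in 5 of 15. This range overlaps that of MUTE and MUTEv5#5, so the correlations do not settle which lines pair. In MUTEv5#5 against MUTE, whose numbers were taken to pair without a statement in the labels, the replicate block left 0 members called. With the replicate number as a block, 90 list genes were called, and 1 member in MUTEv5#2 against MUTE, which was AT1G04463 and not AT3G24420 (adjusted p = 0.0584 there by edgeR).

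MUTE and MUTEPPP#3 were each 1 line, the members were chosen on the libraries that describe them, and clock genes differed between libraries of every line. Line, allele and clock state cannot be told apart in the contrast the rule used. The lowest count of a member in the other lines was 6, so counting error matters for the rarest members, and 3 replicates per line limit the tests of all of them.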
